A study of Mus musculus with 10 samples.

Results

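Ion channels of the sperm tail were followed through both sample sets of a study of *Rnf20*, the E3 ligase for ubiquitination of histone H2B, in mouse Sertoli cells. The genes were 10 in number, taken by their symbols from 20142 genes listed in at least one of the expression tables. They were *Catsper1*, *Catsper2*, *Catsper3* and *Catsper4*, which encode the pore of the CatSper calcium channel, its auxiliary subunits *Catsperb*, *Catsperd*, *Catsperg1* and *Catsperg2*, and the SLO3 potassium channel gene *Kcnu1* with its auxiliary subunit *Lrrc52*. All 10 had a row in the adult table of 20007 genes, and 7 had a row in the day 7 table of 17816 genes.

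The adult set held whole testis tissue from mice labelled WT (n = 3) and from mice labelled RNF20 conditional knockout (n = 3). The day 7 set held Sertoli cells of testes taken 7 days after birth, labelled WT (n = 2) and RNF20 conditional knockout (n = 2). The study describes LoxP sites that flank part of *Rnf20* and a Cre driven by the *Amh* promoter, which is active in the Sertoli cells. One growth label shared by all samples names adult tissue, whereas the titles and cell type labels, followed here, place these 4 samples at day 7 and in Sertoli cells. The study names the controls *Rnf20* Flox/Flox and the knockouts *Amh-Rnf20*-/-, and it describes the day 7 cells as adherent cells of digested testes that were cultured and passaged, from more individuals per group than the 2 libraries analysed here. No source used here says which adult libraries came from separate animals, so the p-values measure the spread between these samples only. Strain and exact adult age are not given in the sources used here.

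*Rnf20* itself checks the labels. In the day 7 cells its level was 16.6 and 16.0 FPKM (fragments per kilobase of transcript, scaled to sequencing depth) in the WT libraries and 10.3 and 12.6 FPKM in the knockout libraries. In adult testis it was 4.89, 3.32 and 4.09 FPKM in WT and 9.16, 5.76 and 9.85 FPKM in the labelled knockouts, so *Rnf20* was not lower there, and the adult group is called labelled knockout throughout. After TMM scaling the adult difference of *Rnf20* was 0.12 on the log2 scale (SE 0.27, adjusted p = 0.688, edgeR). Other cells of the testis also express *Rnf20*, and the deposited level counts the whole gene. Labelled knockout 1 stood apart from the other libraries of its group, with a count at 16985 genes against 18335 and 18432. Its median Sertoli cell marker was at 159% of WT in counts scaled to the library total, against 724% and 886%. These markers summed to 2760 FPKM against 5084 and 5848, mostly *Clu* at 1857, 4411 and 4953 FPKM. *Inha* went the other way, at 766 FPKM against 245 and 368. Counts of calls in adult testis are therefore given with and without it.

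CatSper is a calcium channel of the sperm flagellum. Its pore is built from 4 different proteins, one from each of *Catsper1* to *Catsper4*, and a ring of auxiliary proteins surrounds it. The entry of calcium through it drives the hyperactivated tail beat that sperm need to reach and penetrate the egg. SLO3, the product of *Kcnu1*, is a potassium channel of the same membrane that opens as the cytoplasm becomes alkaline, and LRRC52 shifts its opening towards the voltages found in sperm. Transcripts of these genes are made in the testis during late meiosis and in spermatids, well before the protein works in sperm.

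All 10 genes were expressed in WT adult testis, within a 2.99-fold range of each other on the FPKM scale, which corrects for transcript length. *Catsper2* was highest at 89.9 ± 11.5 FPKM (mean ± SD, n = 3), followed by *Catsper1* at 81.3 ± 1.66 and *Catsper4* at 71.2 ± 14.1 FPKM. *Catsperd* (70.9 ± 5.48) and *Catsper3* (61.0 ± 3.62) came next. The paralogs *Catsperg1* and *Catsperg2* stood at 50.6 ± 1.78 and 41.4 ± 2.52 FPKM. The potassium channel pair was lower, with *Lrrc52* at 35.7 ± 1.12 and *Kcnu1* at 31.1 ± 3.49 FPKM, and *Catsperb* was lowest at 30.1 ± 3.08 FPKM. In this order, the ranges of the 3 WT libraries overlapped between *Catsper2* and *Catsper1*, between *Catsper1* and *Catsper4*, and between *Catsper4* and *Catsperd*. They also overlapped between *Lrrc52* and *Kcnu1*, and between *Kcnu1* and *Catsperb*. The 4 pore genes thus lay between 57.3 and 103.1 FPKM in every WT library, although the protein pore takes one subunit of each.

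The genes lie on 9 chromosomes, and *Catsperg1* (chr7:29181532-29215589) and *Catsperg2* (chr7:29697217-29727049, both on the minus strand of GRCm38.p6) share one. Their transcripts are near copies: *Catsperg1*-212 and *Catsperg2*-201 were 96.5% identical over 3658 aligned bases, and 41.0% of the 50-base windows of the first occurred unchanged in the second. Reads from these stretches can belong to either gene, so the split between *Catsperg1* and *Catsperg2* is uncertain. The 4 pore genes shared 0 such windows with each other. Of the other genes, exons of *Catsper2* in the GENCODE annotation overlap those of *Pdia3* on the opposite strand by 18 bases. The overlap in the annotation behind the deposited counts was not measured.

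Although they were expressed together, the genes did not share one kind of start region. RefSeq promoter windows (GRCm38.p6, 250 bases before to 50 after a start) were matched for 7 of the 10 genes. The median window of 27025 genes held 6 CG dinucleotides in its 250 upstream bases. *Catsper2* held 35 and *Catsperd* 25 at its first listed start, a number that 10.3% of all genes reach. *Catsper4* and *Catsperb* held 1 each and *Catsper3* 2, and 29.6% of all genes have 2 or fewer. *Lrrc52* held 5, as did *Catsperg1* at its first listed start. At their other listed starts *Catsperg1* held 7 and *Catsperd* 11. The upstream bases of the CG-richest and the CG-poorest starts are printed to show this contrast, 5′ to 3′ on the strand of the gene, with each CG in capitals. They run chr2:121413793-121414042 (minus strand) for *Catsper2*, chr17:56626797-56627046 (plus) for *Catsperd*, chr4:134227384-134227633 (minus) for *Catsper4* and chr12:101404423-101404672 (plus) for *Catsperb*.
Catsper2: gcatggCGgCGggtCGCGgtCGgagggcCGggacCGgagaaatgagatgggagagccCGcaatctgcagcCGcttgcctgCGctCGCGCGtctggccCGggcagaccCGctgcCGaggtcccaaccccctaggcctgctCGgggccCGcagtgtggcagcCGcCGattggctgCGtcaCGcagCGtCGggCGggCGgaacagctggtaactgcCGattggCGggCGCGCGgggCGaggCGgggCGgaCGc
Catsperd: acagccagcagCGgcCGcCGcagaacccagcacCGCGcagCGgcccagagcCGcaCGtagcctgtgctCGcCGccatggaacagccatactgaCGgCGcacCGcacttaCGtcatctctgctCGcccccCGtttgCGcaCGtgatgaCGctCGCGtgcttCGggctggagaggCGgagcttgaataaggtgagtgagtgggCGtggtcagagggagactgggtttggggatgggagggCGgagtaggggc
Catsper4: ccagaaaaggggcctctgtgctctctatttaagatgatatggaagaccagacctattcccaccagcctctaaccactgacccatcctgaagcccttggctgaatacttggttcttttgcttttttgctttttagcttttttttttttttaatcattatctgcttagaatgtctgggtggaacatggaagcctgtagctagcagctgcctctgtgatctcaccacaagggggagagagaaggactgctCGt
Catsperb: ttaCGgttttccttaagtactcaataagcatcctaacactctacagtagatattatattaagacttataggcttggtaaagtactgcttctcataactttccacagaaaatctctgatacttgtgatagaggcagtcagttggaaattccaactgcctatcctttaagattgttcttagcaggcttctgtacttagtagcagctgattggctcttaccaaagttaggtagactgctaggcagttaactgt

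Motifs of factors active in spermatids or spermatocytes were searched on both strands of these 250 bases. The cyclic AMP response element TGACGTCA occurred in 0 of the 7 matched genes, against 1.6% of all genes. Its short form TGACG occurred in 2 (28.6%, against 17.9% of all genes), namely once in *Catsper2* and 3 times in *Catsperd*. The MYB motif AACNGNC occurred in *Catsper2*, *Catsperd* and *Catsperb* (42.9%, against 27.6%), with 3 matches in *Catsperb*. The short RFX motif GTTGCC occurred in 0 (against 10.5%), and TATAAA in *Catsperg1* alone (14.3%, against 13%). With 7 genes these shares describe the windows and are not a test.

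In the adult testes labelled knockout, the sperm channel genes were at a few percent of their WT level or less. Of the 10, 8 were lower past both thresholds of the study, an absolute log2 fold change over 1 and a false discovery rate (FDR) under 0.001, and 0 were higher (edgeR quasi-likelihood test, Benjamini-Hochberg adjustment over 15919 genes). By the same rule 23.7% of all genes tested were lower and 23% higher. All 10 passed an FDR of 0.05, where the background was 40.6%, and for all 10 every labelled-knockout library lay below every WT library, which held for 43.1% of all genes, with 42.4% above in the same way. The median log2 fold change of the 10 was -5.48 (-4.86 without labelled knockout 1), against 0.01 over all genes tested. The direction of the group is therefore shared with a large part of the transcriptome, while the size of its change was in the lowest 11.4% for every one of the 10. In whole tissue, fewer cells of a type and less RNA per cell cannot be told apart.

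**Figure D1:**
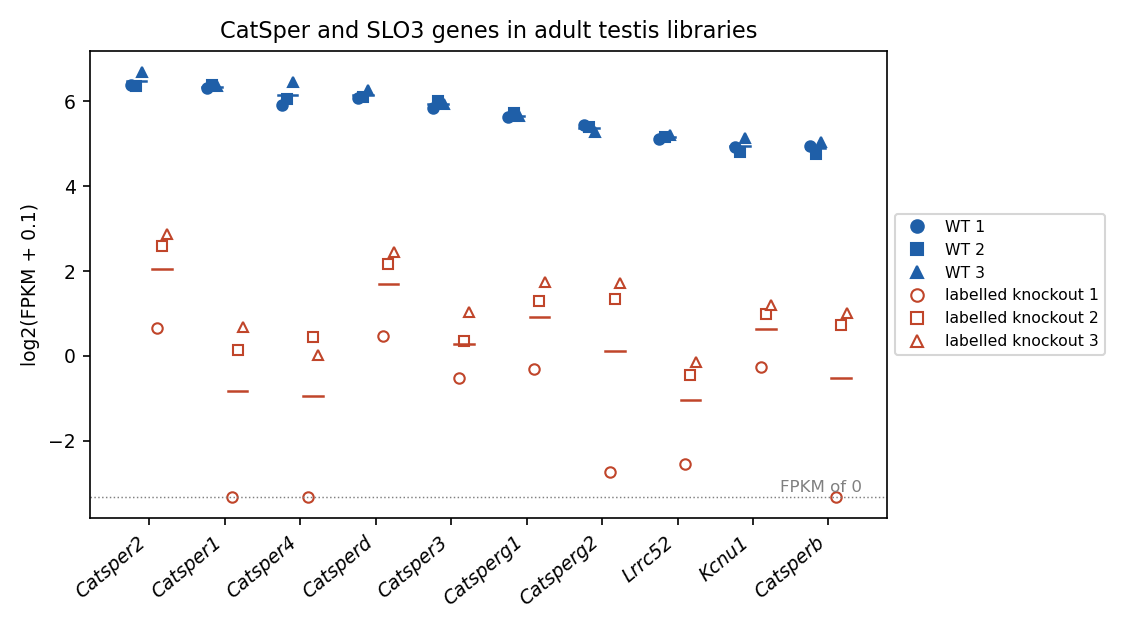
Levels of the 10 channel genes in adult testis, as log2(FPKM + 0.1), for the 3 WT libraries (filled) and the 3 libraries labelled knockout (open), with symbols for the replicate number and a bar at the mean of each group. The groups do not overlap for any gene, and labelled knockout 1 is the lowest library throughout, at 0 FPKM (dotted line) for *Catsper1*, *Catsper4* and *Catsperb*.

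Among the pore genes, *Catsper1*, whose product carries the histidine-rich N-terminal region of the channel, was at 79.6, 82.9 and 81.4 FPKM in WT and at 0, 1 and 1.5 FPKM in the labelled knockouts. *Catsper4* was at 59.8, 66.8 and 86.9 FPKM in WT and at 0, 1.26 and 0.92 FPKM in the labelled knockouts. Both thus went from among the highest of the group to almost nothing, with 0 counts in labelled knockout 1. Their log2 fold changes were -7.45 (SE 1.09, adjusted p = 0.000931) for *Catsper1* and -7.47 (SE 0.95, adjusted p = 0.00052) for *Catsper4*, the 2 lowest of the 10.

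*Catsper3* stood at 57.3, 64.5 and 61.3 FPKM in WT and at 0.60, 1.18 and 1.95 FPKM in the labelled knockouts. Its fold change of -6.52 on the log2 scale had a small error (SE 0.42, adjusted p = 5.02e-05), and all 3 labelled knockouts held a trace of it. *Catsper2* was the exception among the pore genes. It was at 83.9, 82.6 and 103.1 FPKM in WT and kept 1.47, 5.91 and 7.24 FPKM in the labelled knockouts, with a log2 fold change of -4.89 (SE 0.44, adjusted p = 0.000132). The ratio of *Catsper2* to *Catsper1* FPKM was 1.05, 0.996 and 1.27 in the WT libraries, and 5.91 and 4.83 in labelled knockouts 2 and 3. In both of these libraries the ratio was above that of every WT library.

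The auxiliary subunits were lower in every labelled knockout as well. *Catsperd*, needed for a stable channel complex, was at 67.5, 68.0 and 77.2 FPKM in WT and at 1.28, 4.38 and 5.39 FPKM in the labelled knockouts (log2 fold change -5.18, SE 0.58, adjusted p = 0.000306). *Catsperb* was at 30.6, 26.8 and 32.9 FPKM in WT and at 0, 1.57 and 1.93 FPKM in the labelled knockouts. Its groups were far apart, but the spread between the labelled knockouts was wide and *Catsperb* missed the stricter threshold (log2 fold change -5.57, SE 1.18, adjusted p = 0.00478).

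The *Catsperg* paralogs had nearly equal fold changes. *Catsperg1* was at 49.0, 52.5 and 50.3 FPKM in WT and at 0.71, 2.36 and 3.27 FPKM in the labelled knockouts (log2 fold change -5.39, SE 0.60, adjusted p = 0.000299). *Catsperg2* was at 43.5, 42.0 and 38.6 FPKM in WT and at 0.05, 2.45 and 3.20 FPKM in the labelled knockouts, and it missed the stricter threshold (-5.34, SE 1.19, adjusted p = 0.00596). The ratio of *Catsperg1* to *Catsperg2* FPKM was 1.13, 1.25 and 1.30 in WT and 0.963 and 1.02 in labelled knockouts 2 and 3, but 14.2 in labelled knockout 1, where it rested on 39.8 estimated counts against 2.24. That split is the one that shared sequence makes uncertain.

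Of the potassium channel, *Kcnu1* was at 30.3, 28.0 and 34.9 FPKM in WT and at 0.73, 1.87 and 2.21 FPKM in the labelled knockouts (log2 fold change -5.17, SE 0.42, adjusted p = 9.76e-05). *Lrrc52* was at 34.7, 35.7 and 36.9 FPKM in WT and at 0.07, 0.63 and 0.81 FPKM in the labelled knockouts (-6.99, SE 0.52, adjusted p = 7.33e-05). The channel gene and its auxiliary gene, at a ratio of 0.873, 0.785 and 0.945 in WT, stood at 10.4, 2.97 and 2.73 in the labelled knockouts. All 3 labelled knockouts held relatively more *Kcnu1* than any WT library, and the first of these ratios rests on 1 count of *Lrrc52*.

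**Figure D2:**
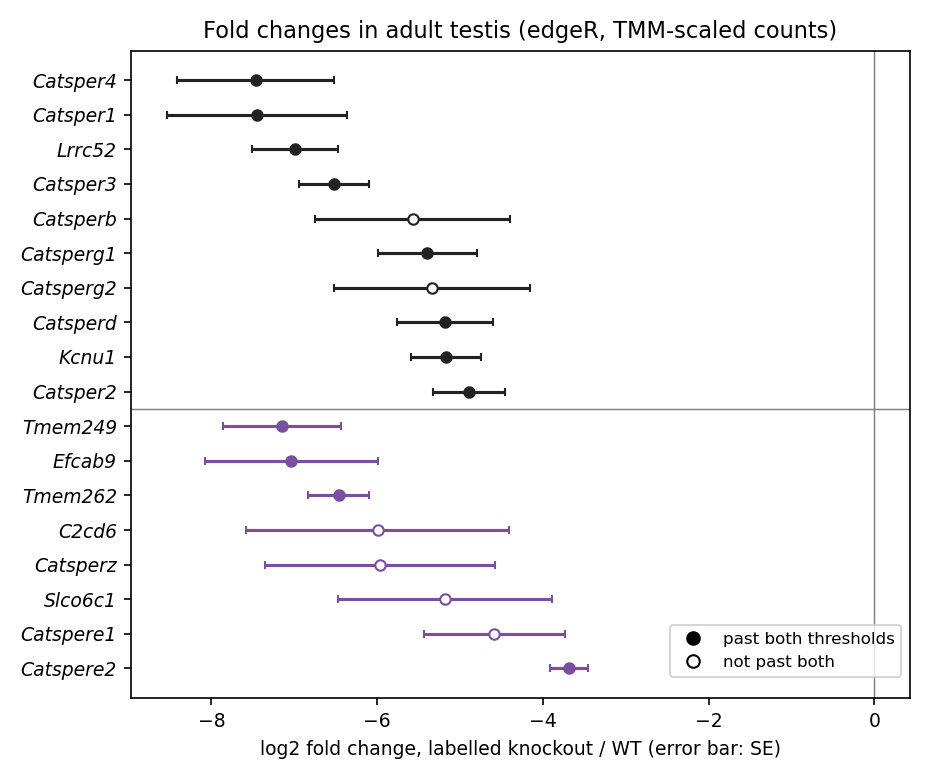
Log2 fold changes, labelled knockout over WT, with standard errors from the edgeR fit, for the 10 channel genes (black) and 8 further CatSper subunit genes (purple). Filled points passed both thresholds, and all 18 lie far to the left of 0, between -7.47 and -3.69.

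Which of the genes passed the stricter threshold depended on single libraries. With labelled knockout 1 left out, all 10 passed it, with adjusted p between 2.00e-08 and 7.04e-08, where 31% of all genes were lower and 32.4% higher. Leaving out WT 1, WT 2, WT 3, labelled knockout 2 or labelled knockout 3 each left 3, in all 5 cases *Catsper3*, *Kcnu1* and *Lrrc52*, while 9.65% to 11.8% of all genes were lower in these fits.

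Relative to WT, the genes fell into 2 ranges in the labelled knockouts, a division made after the values were seen. In counts scaled to the library total (CPM), labelled knockouts 2 and 3 held 1.33% and 1.82% of the mean WT level of *Catsper1*, 1.78% and 1.30% of *Catsper4*, 1.87% and 3.23% of *Catsper3*, and 1.76% and 2.26% of *Lrrc52*. The other 6 genes lay between 4.84% (*Catsperg1*) and 7.23% (*Catsper2*) in labelled knockout 2 and between 6.44% (*Catsperb*) and 8.59% (*Catsper2*) in labelled knockout 3. These 2 libraries therefore placed the same 4 genes below the same 6, without overlap. The percentages depend on the scaling. With the TMM scaling of the fit they were 0.733% and 0.955% for *Catsper1* and 3.98% and 4.51% for *Catsper2*, and the 4 genes, at 1.69% or less, again lay below the 6, at 2.66% or more.

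Labelled knockout 1 was lower still and placed them differently. It was the lowest library for all 10 genes. *Catsper2* (2.73%), *Kcnu1* (2.23%), *Catsperd* (1.55%) and *Catsperg1* (1.34%) kept over 1% of their WT level, on 79, 36, 38 and 39.8 estimated counts. *Catsper3* was at 0.855%, *Lrrc52* at 0.199% and *Catsperg2* at 0.0945%. *Catsper1*, *Catsper4* and *Catsperb* had 0 counts, which allows up to 0.123%, 0.181% and 0.182% of WT when 3 counts are taken as the floor. Such floors cover counting error only.

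**Figure D3:**
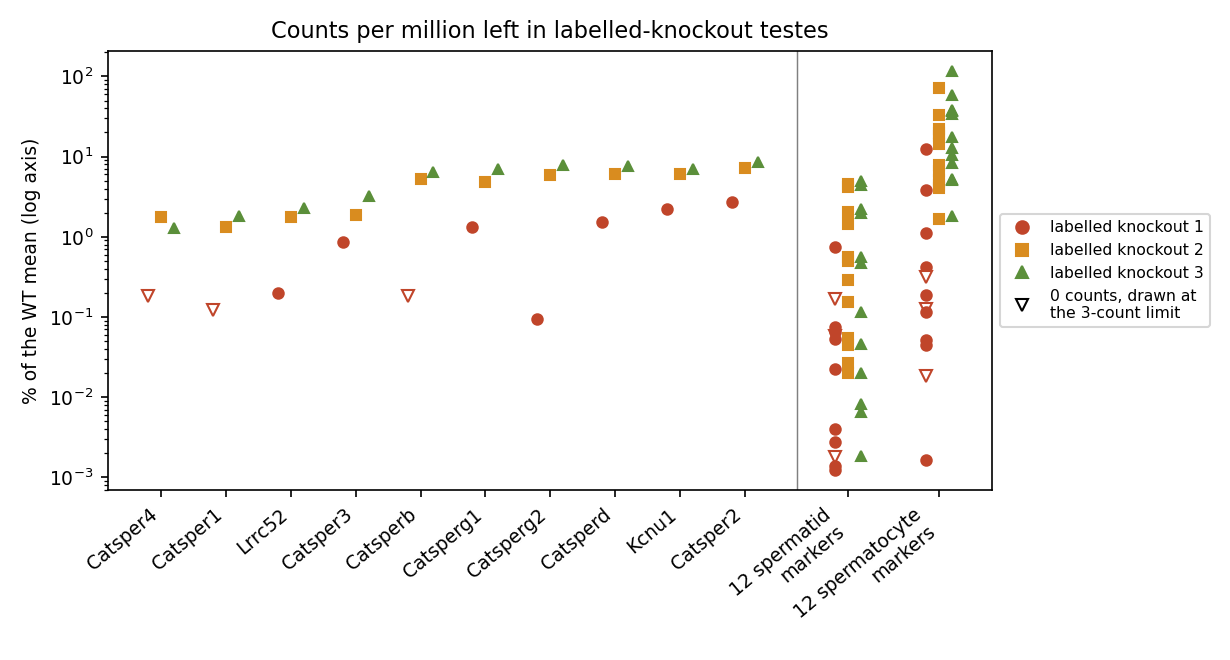
Counts scaled to the library total (CPM) in each library labelled knockout as a percentage of the WT mean, on a log axis, for the 10 channel genes, 12 spermatid marker genes and 12 spermatocyte marker genes. Open triangles mark 0 counts, drawn at the level of 3 counts, and in labelled knockouts 2 and 3 the 10 genes lie between 1.30% and 8.59%.

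Levels of germ cell markers are given beside these genes. Over all genes, 23.7% fell and 23% rose past both thresholds (31% and 32.4% without labelled knockout 1), and 40.6% fell at an FDR of 0.05. Summed over 12 spermatid markers, among them the protamine genes, the level was 125583 to 194642 FPKM in WT and 4.73, 101.0 and 59.2 FPKM in the labelled knockouts. Of the 12, 9 fell past both thresholds and all 12 lay below WT in every labelled knockout. Of 12 spermatocyte markers, 1 fell past both thresholds and 8 at an FDR of 0.05. On TMM-scaled counts all 12 lay below WT in every labelled knockout, but *Dmc1* reached 118% of the WT mean in CPM in labelled knockout 3. Of 10 spermatogonium markers tested, 0 fell and 2 rose past both thresholds (edgeR), and at an FDR of 0.05 these were 5 and 2. Without labelled knockout 1, 12 spermatid, 11 spermatocyte and 3 spermatogonium markers fell past both thresholds and 3 spermatogonium markers rose. The median spermatid marker kept 0.00338%, 0.395% and 0.295% of WT in labelled knockouts 1, 2 and 3. The median spermatocyte marker kept 0.0832%, 11.0% and 15%, and the median of the 10 channel genes 0.527%, 5.04% and 6.72%. The median channel gene thus kept more than the median spermatid marker in all 3 labelled knockouts, and less than the median spermatocyte marker in labelled knockouts 2 and 3 but not in 1, where 3 of the 10 channel genes had 0 counts. The spermatid markers were uneven, and 4 of the 12 lay within the range of the channel genes in labelled knockouts 2 and 3, namely *Spaca1* (4.52% and 5.004%), *Acr* (4.22% and 4.38%), *Acrv1* (2.07% and 2.21%) and *Izumo1* (1.44% and 1.97%).

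Each gene was set against the mean of the 12 spermatid markers in the same library, as a difference of log2(FPKM + 0.1) centred on WT. In WT the 10 genes lay between -0.31 and 0.42, and in labelled knockouts 2 and 3, where each of them had counts, between 2.06 (*Catsper1*) and 5.62 (*Catsper2*). The median shift over these 2 libraries was 4.66, from 2.81 for *Catsper1* to 4.995 for *Catsper2*. Values in labelled knockout 1 are not compared on this scale, since the pseudocount of 0.1 sets them for genes at 0 counts and limits how far any of the 10 can fall. Against the mean of the 12 spermatocyte markers, all 10 genes were lower in labelled knockouts 2 and 3, from -0.67 for *Catsper2* to -3.47 for *Catsper4*. These differences set 2 labelled-knockout libraries against 3 WT libraries and are described without a test. The part of cell makeup in the fall of the channel genes was not tested.

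Markers of interstitial cells were higher, where 23% of all genes were higher past both thresholds (32.4% without labelled knockout 1). The 7 Leydig cell markers summed to 4044 to 5640 FPKM in WT and to 65035 to 89587 FPKM in the labelled knockouts, and all 7 rose past both thresholds, as did all 5 stromal and all 5 macrophage markers. All of these also rose without labelled knockout 1. Sertoli cell markers were mixed, with 2 of 12 higher and 1 lower past both thresholds (11 higher and 1 lower without labelled knockout 1), and so were peritubular markers, with 3 of 6 higher and 1 lower (4 and 1). Of 5 endothelial markers, 2 were higher past both thresholds (4 without labelled knockout 1). The totals per adult library were even, at 15431912 to 16574144 estimated counts, but the TMM factors were 0.71 to 0.761 in WT and 1.27 to 1.42 in the labelled knockouts. Scaling to the total count moved the median of all genes to 0.87 on the log2 scale. The 10 channel genes kept their direction there, between -6.59 and -4.01, while the call of *Catsper1* was lost (adjusted p = 0.00138).

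Of the other CatSper subunits, 8 of 9 had a row and were tested. All 8 were lower at an FDR of 0.05 and 4 of them past both thresholds, all 8 lay below WT in every labelled knockout, and their median on the log2 scale was -5.98. Without labelled knockout 1, all 8 were lower past both thresholds, with a median of -5.28. Over all genes, 40.6% were lower at an FDR of 0.05 and 23.7% past both thresholds (31% without labelled knockout 1). *Catsperz*, which helps the channel to form continuous rows along the tail, had a WT mean of 901.7 FPKM and a labelled-knockout mean of 26.9 FPKM (-5.97, SE 1.39, adjusted p = 0.00725). Its partner *Efcab9*, a calcium sensor of the complex, went from 434.3 to 5.77 FPKM (-7.03, SE 1.04, adjusted p = 0.000992). *C2cd6*, required for the assembly of the channel in the flagellum, went from 229.8 to 6.23 FPKM (-5.99, SE 1.59, adjusted p = 0.0125). *Tmem262* went from 77.6 to 0.73 FPKM (-6.46, SE 0.37, adjusted p = 3.75e-05), and the transporter gene *Slco6c1* from 59.2 to 2.99 FPKM (-5.18, SE 1.29, adjusted p = 0.00967). The subunits outside the pore thus spanned a wider range of WT levels than the 10 genes, with *Catsperz* over 10-fold above *Catsper1*.

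Genes of sperm ion transport and capacitation, the maturation that readies sperm for the egg, were mostly lower too. Of 15, 13 were tested, 3 were lower and 1 higher past both thresholds, and the median was -5.27. By that rule 23.7% of all genes tested were lower and 23% higher, so the 3 lower calls were near the share over all genes. At an FDR of 0.05, 10 were lower, 1 was higher and 2 did not pass, where 40.6% of all genes were lower. Without labelled knockout 1, 10 were lower and 1 higher past both thresholds, with a median of -4.57, where 31% of all genes were lower and 32.4% higher. *Atp1a4*, the sodium pump of sperm, was at 267.3 FPKM in WT and 2.98 FPKM in the labelled knockouts (-7.54, SE 0.24, adjusted p = 2.70e-05). *Cabyr*, a calcium-binding protein of the fibrous sheath, was at 570.6 and 7.31 FPKM (-7.16, SE 0.91, adjusted p = 0.000519). *Akap4*, *Akap3* and *Plcz1* were at 819.0, 299.9 and 151.0 FPKM in WT and at 2.62, 2.85 and 1.01 FPKM in the labelled knockouts, with adjusted p of 0.00179, 0.00619 and 0.00149. The gene that rose, named after its values were seen, was the proton channel *Hvcn1*, which blood cells express as well. It was at 0.40, 0.28 and 0.20 FPKM in WT and at 9.59, 8.79 and 7.76 FPKM in the labelled knockouts (4.02, SE 0.30, adjusted p = 7.34e-05), beside macrophage markers that summed to 35.9 to 38.5 FPKM in WT and 1095 to 1927 FPKM in the labelled knockouts. The part of that cell type in the rise was not tested.

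The relatives of *Kcnu1* and *Lrrc52* did not move as one. Of 10 Slo channels and auxiliary subunits, 7 were tested, 3 were lower and 2 higher past both thresholds (4 and 2 without labelled knockout 1, *Kcnmb4* being added). Over all genes tested, 23.7% were lower and 23% higher by that rule (31% and 32.4% without labelled knockout 1). *Kcnmb4*, a beta subunit of large-conductance potassium channels, was by far the most abundant, at 163.9, 178.9 and 150.6 FPKM in WT and 0.95, 11.1 and 12.1 FPKM in the labelled knockouts, and narrowly missed the stricter threshold (-5.14, SE 0.84, adjusted p = 0.00152). *Kcnmb3* (-4.50) and *Lrrc55* (-5.56) fell, with adjusted p of 0.000111 and 0.000234. *Lrrc26* also fell, from 81 counts over the WT libraries to 0, a level at least 26.1-fold lower with 3 counts over the group as floor, and the median of the list was -4.50 with it at its fitted value or at that bound. The channel genes *Kcnma1* (0.523 FPKM in WT, 2.03 FPKM in the labelled knockouts, log2 fold change 1.39, adjusted p = 0.000417) and *Kcnt1* (0.317 and 2.24 FPKM, 1.96, adjusted p = 0.000361) rose. Of the 3 Slo channel genes that were tested, *Kcnu1* was the one that fell.

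Among the classical voltage-gated calcium channels, 4 of 10 pore genes were tested. *Cacna1h* was the most abundant, at 14.1, 14.0 and 15.6 FPKM in WT and 3.95, 5.36 and 5.94 FPKM in the labelled knockouts (-2.39, SE 0.16, adjusted p = 5.34e-05), and was the only one of the 4 past both thresholds. Without labelled knockout 1, 5 were tested, of which 3 were lower, among them *Cacna1a* and *Cacna1h*, and 1, *Cacna1d*, was higher. Past both thresholds, 23.7% of all genes were lower and 23% higher (31% and 32.4% without labelled knockout 1). *Cacna1d* was at 1.12 FPKM in WT and 7.53 FPKM in the labelled knockouts (1.91, SE 0.33, adjusted p = 0.002), and *Cacna1a* at 1.76 and 0.827 FPKM (-1.80, SE 0.28, adjusted p = 0.00122). *Cacna1s* overlapped between the groups. The median of the 4 was -1.23, against -5.48 for the CatSper and SLO3 genes, and without labelled knockout 1 these medians were -1.90 (of 5) and -4.86.

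The genes outside these lists nearest to the mean profile of the 10 were ranked. Over the 6 adult libraries and 14605 genes ranked, the smallest root mean square differences in centred log2(FPKM + 0.1) were those of *Lrrc71* (0.0824), *Potegl* (0.0894), *Heatr4* (0.0896), *Tekt2* (0.112) and *Sox30* (0.114). *Lrrc71* was at 52.8, 48.4 and 57.0 FPKM in WT and at 0.23, 1.98 and 2.55 FPKM in the labelled knockouts. *Tekt2*, a protein of the flagellar axoneme, was at 246.1, 255.1 and 258.6 FPKM in WT and at 1.61, 11.4 and 11.6 FPKM in the labelled knockouts. *Sox30*, a transcription factor of late meiosis and spermatids, was at 97.0, 93.7 and 105.5 FPKM in WT and at 0.58, 3.88 and 3.72 FPKM. The 10 genes themselves lay 0.389 (*Lrrc52*) to 0.931 (*Catsper1*) from their own mean, distances in which the 3 genes at 0 counts in labelled knockout 1 are set there by the pseudocount. The mean profile and so the ranking depend on the pseudocount too. *Heatr4* was at 0 and *Potegl* at 0.02 FPKM in that library.

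In the day 7 Sertoli cells the sperm channel genes were close to the limit of detection in both genotypes. Totals were 17477268 to 17705347 estimated counts per library, and *Catsper1*, *Catsper4* and *Catsperb* had no row, as neither table lists a gene at 0 in every sample. At 0 counts, 3 counts as the floor allow up to 0.169 to 0.172 CPM. *Catsper2* had the most, with 20.01 and 16.01 estimated counts in WT and 16.01 and 18 in the knockouts, or 0.25 to 0.47 FPKM. Whether reads of the overlapping *Pdia3* add to these counts was not tested. *Kcnu1* had 6 and 11 counts in WT and 17 and 9 in the knockouts, and *Catsperd* had 8 and 3 in WT and 10 and 6 in the knockouts. For all 3 of these genes the genotypes overlapped.

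The rest were at single counts. *Catsper3* had 3 and 2 counts in WT and 4 and 1 in the knockouts, and *Catsperg2* had 1.29 and 1 in WT and 0 and 1 in the knockouts. *Catsperg1* had 4.71 and 4 in WT and 1 and 2 in the knockouts, and *Lrrc52* had 0 and 0 in WT and 0 and 2 in the knockouts. *Catsperg1* was the gene whose genotypes did not overlap, on counts of 5 or fewer, and 26.1% of the genes tested at day 7 were lower in both knockouts than in both WT libraries (24.8% higher). Summed over the group the level was 1.05 and 0.73 FPKM in WT and 1.18 and 0.89 FPKM in the knockouts, against 536 to 603 FPKM in adult WT testis, a level set across tables that were normalized separately.

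**Figure D4:**
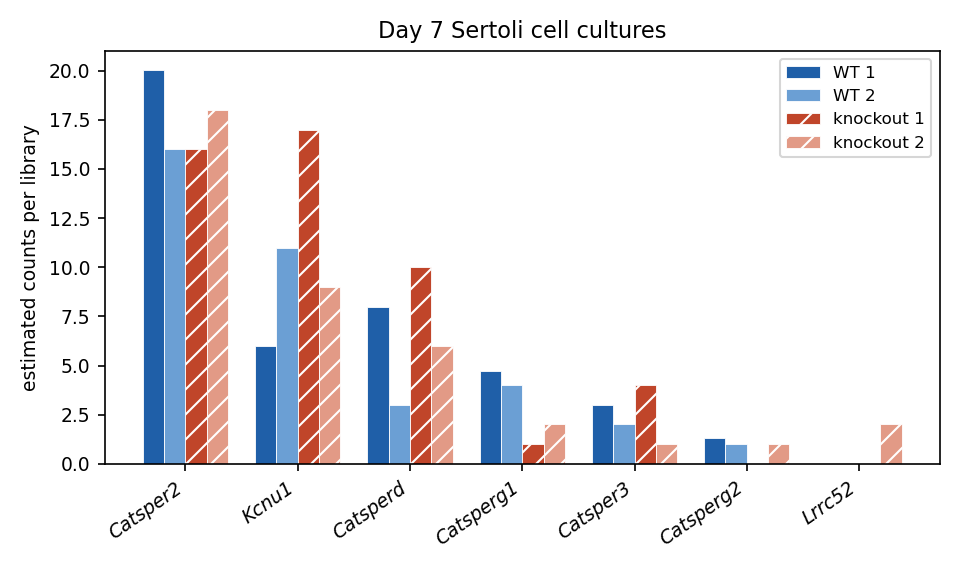
Estimated counts of the 7 channel genes with a row in the day 7 table, for WT 1 and 2 (blue) and knockout 1 and 2 (red, hatched). No gene exceeds 20.01 counts, and the genotypes overlap for every gene but *Catsperg1*.

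None of the 10 reached 0.5 FPKM in 2 libraries, the minimum for a test, so 0 were tested at day 7. With no such minimum, the adjusted p of the 7 listed genes ranged from 0.464 to 0.996 (edgeR). Of the 12880 genes that were tested, 0% were called lower and 0% higher past both thresholds by edgeR, while 1997 had an unadjusted p under 0.05 and DESeq2 called 126. At these counts, and with 2 libraries per genotype, no difference in the channel genes was detectable. The other CatSper subunits were as low, with 5 of 9 listed and a summed level of 0.44 to 0.72 FPKM.

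The day 7 libraries held Sertoli cell markers, such as *Sox9* at 41.8 and 39.4 FPKM in WT and 10.2 and 25.7 FPKM in the knockouts, and no *Prm1*, *Prm2* or *Tnp2* row. They also held markers of other cells. The 12 Sertoli cell markers summed to 1742 and 1597 FPKM in WT and 916.0 and 1286 FPKM in the knockouts, and on TMM-scaled counts 8 of them were lower in both knockouts than in both WT libraries. The 6 peritubular markers summed to 1911 to 2030 FPKM in WT and 3553 to 3604 FPKM in the knockouts, and the 5 stromal markers to 2149 to 2233 and 3303 to 3915 FPKM, all 11 being higher in both knockouts. The 12 spermatogonium markers summed to 209 to 215 FPKM in WT and 146 to 149 FPKM in the knockouts. Summed levels of the 12 spermatid markers were 1.78 and 2.30 FPKM in WT and 1.94 and 0.88 FPKM in the knockouts. The 12 spermatocyte markers summed to 23.7 and 28.9 FPKM in WT and 16.0 and 19.6 FPKM in the knockouts. Which cells the few counts of the channel genes came from was not tested.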

How the data were processed

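RNA-seq was analysed for 6 adult testis samples and 4 day 7 Sertoli cell samples. Per the labels and the study's methods, poly(A) RNA was sequenced on a BGISEQ platform, and the submitters' processing notes name HISAT, Bowtie2 and GRCm38.p6. The authors deposited RSEM estimated counts, FPKM and TPM values per gene. The TPM values were not used, and whether counting used strand is not given in the sources used here. The members and lists were chosen with earlier results of these data known.

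Estimated counts were rounded and fitted separately for each table with edgeR 4.0.16 (R 4.3.3; TMM scaling, quasi-likelihood test, Benjamini-Hochberg adjustment) after genes that reached 0.5 FPKM in fewer samples than the smaller group holds had been removed. A call needed a log2 fold change beyond 1 in either direction and an FDR below 0.001, the thresholds of the study. Standard errors were derived from the F statistic. The procedure was also run on simulated data with few changed genes and the same spread in both groups. That setting is milder than the adult data and does not test the fit under differences as wide. Total-count and median-ratio scaling, other filters, DESeq2 1.42.0, limma 3.58.1 on log2(FPKM + 0.1) and log2(FPKM + 1), an FDR of 0.05, a replicate block and leaving out each library were the alternatives. Values with the pseudocount understate changes of low genes.

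Genes with values were the 10 channel genes, *Rnf20*, up to 5 of each of 4 further lists by highest mean FPKM, and the 5 genes most alike in pattern. *Hvcn1*, *Lrrc26* and the markers named with values were added after their values were seen. Of 9 marker lists, counts and sums were otherwise used. Promoter windows came from RefSeq (GRCm38.p6) and transcripts from GENCODE (GRCm38).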

Additional observations from a re-analysis of the deposited data

Results flagged for a closer look

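*Kcnma1*, the Slo channel gene related to *Kcnu1*, lay on opposite sides of WT in the 2 tables, and only the adult difference passed both thresholds. It was higher in all 3 labelled knockouts than in all 3 WT libraries of adult testis, with a log2 fold change of 1.39. In the day 7 cells it was lower in both knockout libraries, at 0.74 and 1.17 FPKM, than in both WT libraries, at 2.05 and 1.38 FPKM, with a log2 fold change of -0.76 (SE 0.30, adjusted p = 0.335, edgeR). On TMM-scaled counts, 42.4% of all genes tested lay above WT in this way in adult testis and 26.1% below at day 7. The difference between the tables was not tested.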

How the results depend on the processing

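In all 140 alternative fits of single channel genes in adult testis the fold change stayed negative, and 35 of them lost and 6 gained a call past both thresholds. All 10 genes were lower at an FDR of 0.05 in each of the 15 fits, a threshold applied to every fit after the data were seen, with the highest adjusted p at 0.0276 (*Catsperg2*, without labelled knockout 2). In the main fit 40.6% of all genes were lower at this threshold, and the share in the other fits is not given here. Past both thresholds, the count of 8 genes was 7 to 10 under the other scalings, filters, tools and thresholds, and leaving out single libraries gave 3 to 10. The share of all genes that were lower was 14.1% (total-count scaling) to 40.6% (FDR of 0.05) in the former, with 35.5% by DESeq2. It was 9.65% to 31% in the latter. Over all genes, the count of 7432 became 2605 to 10377 when single libraries were left out, and 12969 at an FDR of 0.05. Scaling to the total count gave 5836 higher and 2252 lower, against 3660 and 3772. At day 7, DESeq2 called 126 of all genes, and leaving out single libraries gave 0 to 512 (63 without knockout 1, 512 without knockout 2), with the lone library of that genotype assumed to vary like the other genotype. No channel gene was called at day 7 in any fit, and with the minimum on low values none was tested. Relative to spermatid markers, the median shift over all 3 labelled knockouts was 4.67, with labelled knockout 1 limited by the pseudocount, and was 4.37 to 5.11 when single libraries were left out and 4.95 with a pseudocount of 1. TMM scaling lowered the residual percentages, for example from 6.18% to 3.36% for *Catsper2* as a mean over the 3 labelled knockouts.

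With the replicate number as a block, 0 channel genes and 0 genes in all were called past both thresholds in adult testis by edgeR, where the smallest adjusted p was 0.00149 and 12563 genes had an unadjusted p under 0.05. At day 7 the block gave 0 calls as well. Same-numbered adult libraries correlated at 0.0169, 0.0302 and 0.0178 in their deviations from the group means (day 7: 0.0293). Each adult library correlated best with its own number. In groups this small the deviations sum to 0 and constrain each other. These weak correlations therefore cannot decide whether the numbers pair the samples.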

Other observations

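The counts of the channel genes in labelled knockout 1 and at day 7 were set side by side. The 3 genes with 0 counts in labelled knockout 1, *Catsper1*, *Catsper4* and *Catsperb*, are the 3 without a row in the day 7 table. *Catsper2*, *Kcnu1*, *Catsperd* and *Catsperg1*, with 79, 36, 38 and 39.8 counts in labelled knockout 1, had 70.0, 43, 27 and 11.7 counts over the 4 day 7 libraries. *Catsper3*, *Catsperg2* and *Lrrc52*, with 9, 2.24 and 1 counts in labelled knockout 1, had 10, 3.29 and 2. Labelled knockout 1 held 15911854 estimated counts in all, while the 4 day 7 libraries held 17477268 to 17705347 each. The 2 sides thus differ in depth, and alike counts do not mean alike levels. This comparison was made after the values were seen, over 10 genes of one library and one small set of cultures, and is given as a description.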
